A study of Mus musculus with 58 samples.

Results

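The comparison described here set monocyte-derived macrophages from livers after 2 weeks of common bile duct ligation against the same cells from sham controls. It comprised 7 libraries of the 58 in the series, chosen by their labelled cell source and injury group: 4 of the group CBDL2w, which the design text calls cholestatic injury at onset, and 3 of the control group Sham6w. All mice were of the strain 129SV, and no transgene, Cre line or drug is labelled in either group. The controls were taken at 6 weeks only, so CBDL2w differed from them in time as well as in ligation, and the 2 cannot be told apart. The series also held Kupffer cells and monocytes of the same livers' groups, and groups with advanced cholestatic injury (CBDL6w), acute colitis (DSS) and both (CBDL+DSS). Messenger RNA was measured by 3′ tag sequencing with unique molecular identifiers. Values are the authors' normalized counts, in which every library is scaled to a common depth.

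Ligation of the common bile duct blocks the outflow of bile, so that bile acids and bilirubin build up in the liver, the bile duct epithelium proliferates and portal fibroblasts lay down scar. The liver holds a resident macrophage, the Kupffer cell, which carries the lectin Clec4f and clears particles, hemoglobin and complement-coated microbes from sinusoidal blood. Injury brings in blood monocytes through the chemokine receptor Ccr2; these become macrophages that are known to clear dead cells and to release cytokines and factors that act on scar-forming cells. Osteopontin (Spp1), Trem2 and Gpnmb mark a state of such recruited macrophages that is known from scarred and fatty livers.

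The 3 Sham6w libraries, always given here in the order of replicates 1+2+5, 3 and 4+6, held 118687, 272554 and 294183 reads, and the CBDL2w libraries, in the order of replicates 1 to 4, held 461071, 383478, 300171 and 297866, as recovered from the normalized values. The labels of the first and the last control library join 3 and 2 replicate numbers. Nothing in the labels says that replicates were separate animals, so p-values reflect only the spread between the libraries in each fit, which may be technical. Sham6w replicate 1+2+5 stood apart: it was the shallowest, and across genes it correlated with the other controls at 0.648 and 0.663, against 0.81 between those 2 and 0.832 to 0.885 among the CBDL2w libraries. Among macrophage markers, Csf1r, the receptor for the survival factor of macrophages, was read at 463, 335 and 339.8 normalized counts in the controls and 277, 262, 280.4 and 242 after ligation. Lyz2 and Cd68 were read in all 7 libraries. The monocyte marker Ly6c2 stood at 8.03 ± 1.54 (SD, n = 3) in these controls against 173 ± 47.3 (n = 3) in control monocytes, and the Kupffer cell lectin Clec4f at 78.4 ± 43.6 against 453 ± 34.7 (n = 4) in control Kupffer cells. The labelled cell type therefore carried macrophage markers, with less of the defining marker of either neighbour than that neighbour itself. How the cells were isolated is not stated in the labels.

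Of 6079 genes tested, 103 were higher (1.69%) and 83 lower (1.37%) in CBDL2w, 186 in all (3.06%), at an adjusted p under 0.05 in limma. The 4 libraries lay outside the range of the 3 controls for 97 of the 103 higher genes and for all 83 lower ones, and such separation held upward for 7.4% and downward for 6.86% of all genes tested. Of the higher genes 90 rose at least 2-fold and 45 at least 4-fold on the log2 scale of normalized count + 1, which understates the change of low genes. Among the lower genes 78 fell at least 2-fold, and 16 of the 83 were major urinary protein genes. With edgeR on the recovered reads 70 genes were higher and 95 lower. The limma total became 114 without CBDL2w replicate 1, 118 without CBDL2w replicate 3 and 440 without Sham6w replicate 3. In what follows a named gene kept its call in each of the 7 fits that left out 1 library unless those libraries are given beside it. Ribosomal protein genes are treated as a group. Of 84 such genes 41 kept it throughout, and none of the 84 changed direction in any of the 16 alternatives. These tests took their spread from all 19 libraries of monocyte-derived macrophages. With only the 7 libraries compared 50 genes passed, and of the 76 named genes tested there 32 kept their call and 44 lost it. The 44 included 13 of the 41, namely Clec4n, Sulf2, Trem2, Lgals3, Apoe, Gda, Ccr1, Mmp14, Cd74, Itga6, Fth1, Clec1b and Top2a (adjusted p = 0.0509 to 0.166).

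**Figure D1:**
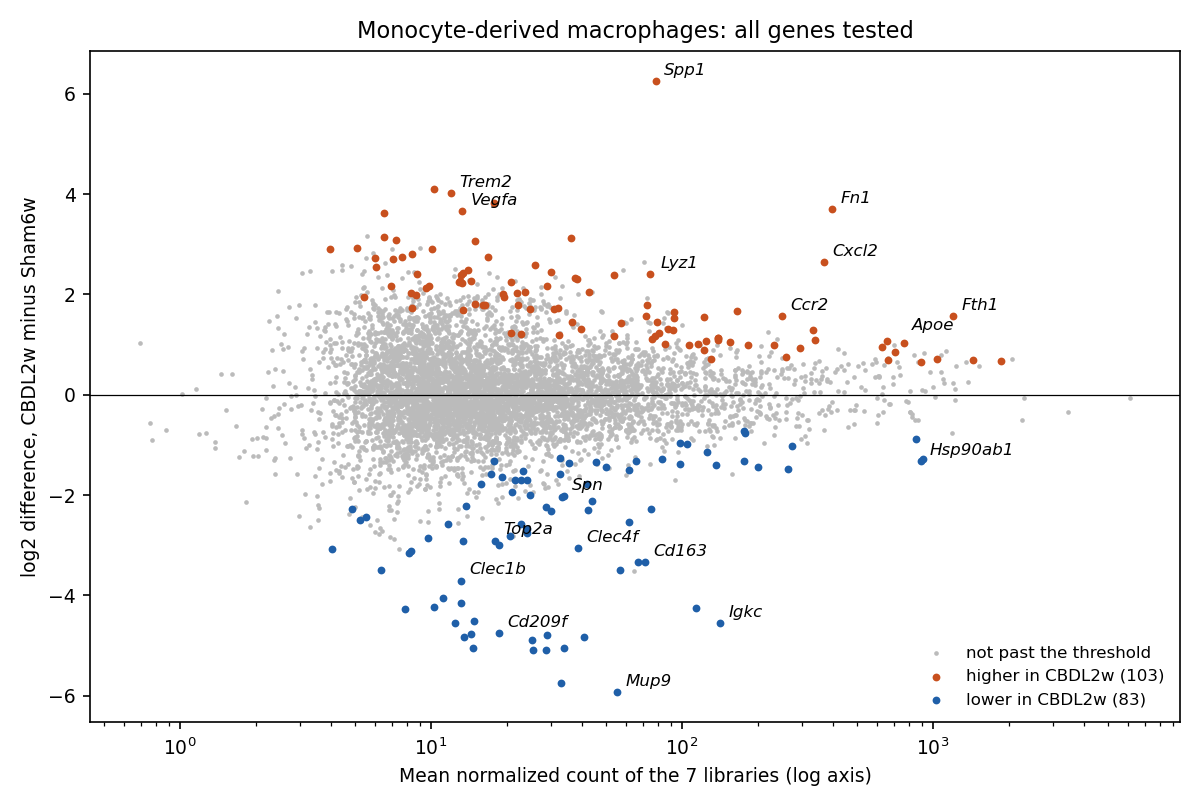
Each point is 1 of the 6079 genes tested in monocyte-derived macrophages, by its mean normalized count over the 7 libraries (x axis, log scale) and the log2 difference of CBDL2w minus Sham6w (y axis). The 103 higher genes (orange) are led by Spp1 and the 83 lower genes (blue) by Mup9, and grey points did not pass the threshold.

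Osteopontin rose most among the genes named by rule. Spp1 (ENSMUSG00000029304, chromosome 5, 104435118 to 104441050), a secreted phosphoprotein that binds integrins, was read at 0, 0 and 3.93 normalized counts in the controls and at 111, 206, 152 and 77.6 after ligation (log2 difference 6.25 ± 0.50, adjusted p = 9.19e-08). Of the controls only replicate 4+6 held any reads of it, and all 4 ligated libraries lay far above, with no overlap. Fibronectin, Fn1 (ENSMUSG00000026193, chromosome 1, 71585520 to 71653200), a scaffold protein of the extracellular matrix, stood at 74.3, 60.8 and 25.5 in the controls and at 652, 579, 804 and 580.3 in CBDL2w, a 12.2-fold rise of the mean (log2 difference 3.70 ± 0.38, adjusted p = 3.92e-06). The neutrophil-attracting chemokine Cxcl2 (ENSMUSG00000058427, chromosome 5, 90903871 to 90905938) stood at 99.1, 89.1 and 81.5 and at 462, 467, 691 and 679 (log2 difference 2.64 ± 0.26, adjusted p = 2.46e-06), with a gap between the groups. Each of these 3 genes also passed with edgeR and DESeq2 on the recovered reads and with only the 7 libraries in the fit.

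Also higher were Clec4n, the C-type lectin dectin-2 that binds fungal mannans (log2 difference 3.13 ± 0.64, adjusted p = 0.00706; 0, 13.0 and 17.7 against 72.4, 52.9, 53.9 and 43.8), and Lyz1, a lysozyme that cuts bacterial cell walls (log2 difference 2.40 ± 0.31, adjusted p = 6.78e-05; 9.91, 36.9 and 22.6 against 141, 104, 109 and 97.5). In both the control libraries lay wholly below the ligated ones, and the Clec4n difference shrank to 1.79 without Sham6w replicate 1+2+5, where it was read at 0. The transglutaminase subunit F13a1 (2.39 ± 0.45), which crosslinks fibrin, the heparan sulfatase Sulf2 (2.33 ± 0.50), the endotoxin co-receptor Cd14 (2.18 ± 0.36) and the lectin-like receptor Cd93 (2.04 ± 0.29) rose as well, and the Sulf2 difference shrank to 1.47 without Sham6w replicate 3. Less firm were Rnase4, a secreted ribonuclease (2.31 ± 0.58), the mitochondrial glutaredoxin Glrx2 (2.25 ± 0.57) and the mitochondrial ribosomal protein Mrps18c (2.59 ± 0.65). Rnase4 lost its call in 5 of the 7 fits, all but those without Sham6w replicate 1+2+5 or 3 (adjusted p = 0.0516 to 0.0833). Glrx2 lost its call without CBDL2w replicate 1, 2 or 4 or Sham6w replicate 1+2+5 (adjusted p = 0.0594 to 0.133). Mrps18c lost its call with edgeR and in 5 of the 7 fits, all but those without Sham6w replicate 3 or 4+6 (adjusted p = 0.0545 to 0.125). Mrps18c was listed at 0 in Sham6w replicate 1+2+5, without which its difference was 1.25.

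**Figure D2:**
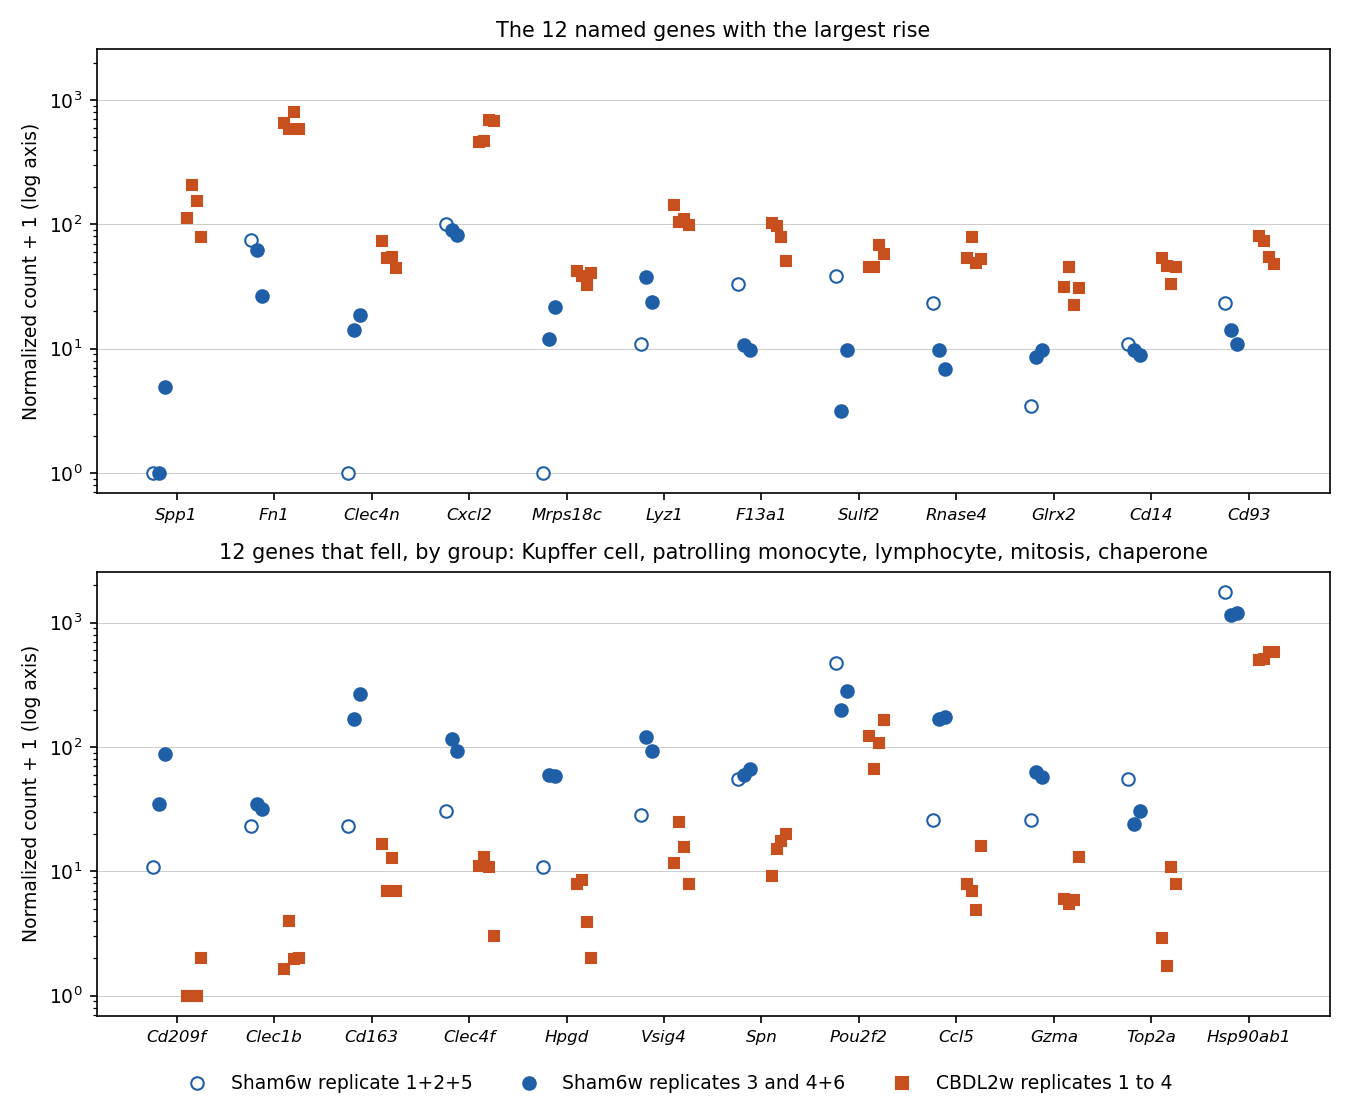
Normalized counts + 1 on a log axis in each of the 7 libraries, for the 12 named genes with the largest rise (upper panel) and 12 genes that fell (lower panel). Circles are Sham6w (the open circle is replicate 1+2+5) and squares CBDL2w; in all 24 genes shown the circles and the squares do not overlap.

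RefSeq promoters of the build GRCm38.p6, 250 bases before to 50 after each start, were found for 8 of these 12 genes; Fn1, Clec4n, Cd14 and Cd93 were not matched. Of these, 2 are shown because Spp1 rose most and Cxcl2 had the tightest separation. Capitals mark GAGGAA, the core bound by PU.1, a master transcription factor of macrophages, in Spp1, and a long site of the inflammatory factor NF-kB in Cxcl2.
Spp1 chr5:104434861-104435160, plus strand: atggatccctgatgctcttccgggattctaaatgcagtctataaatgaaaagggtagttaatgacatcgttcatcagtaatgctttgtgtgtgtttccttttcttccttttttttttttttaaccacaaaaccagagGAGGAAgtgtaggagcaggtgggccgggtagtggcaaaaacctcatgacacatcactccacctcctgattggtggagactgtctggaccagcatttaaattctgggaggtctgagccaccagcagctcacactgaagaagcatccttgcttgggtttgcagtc
Cxcl2 chr5:90903649-90903948, plus strand: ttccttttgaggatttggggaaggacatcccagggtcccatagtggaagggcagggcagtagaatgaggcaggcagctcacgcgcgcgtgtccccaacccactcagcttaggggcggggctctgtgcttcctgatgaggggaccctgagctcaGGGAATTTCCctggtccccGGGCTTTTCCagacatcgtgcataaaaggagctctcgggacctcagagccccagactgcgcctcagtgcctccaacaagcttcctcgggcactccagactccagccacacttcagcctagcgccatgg
Both strands were searched. GAGGAA occurs 113 bases before the start in the Spp1 promoter shown and is held by 28.1% of the 32544 promoters of this length. A second Spp1 promoter, not shown, does not hold it. Cxcl2 holds it on the other strand, 2 bases after the start. That match, and matches to other motifs in both windows, are not marked. In Spp1 these were an interferon-stimulated response element 157 bases before the start (held by 3.45% of promoters) and a TATA box at 211 bases (13.6%). Both are less common than GAGGAA. In Cxcl2 a GC box lay 139 bases before the start (35.9%). The long NF-kB site occurs in Cxcl2 at 97 and 78 bases before the start and is held by 1.61% of promoters. It was chosen after the promoters had been read, since the shorter GGGNNTTCC, held by 5.85%, had no match in either window. These are letters found in a window, not sites shown to be bound.

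The list of lipid- and scar-associated macrophage genes includes Spp1. Of 19 tested, 5 rose, Spp1 among them, and none fell, beside the background of 1.69% higher. The median log2 difference was 0.607 against 0.0276 for all genes, and 16 of the 19 were positive. Its member Cd36 lay lower without overlap but was not called (-1.19 ± 0.62, adjusted p = 0.311). The median was 0.223 without Sham6w replicate 1+2+5 and 0.906 without Sham6w replicate 3. Trem2, a lipid-sensing receptor, was read at 0, 1.09 and 0 in the controls and 25.2, 29.1, 15.7 and 12.9 in CBDL2w (log2 difference 4.02 ± 0.48, adjusted p = 2.65e-05). All 3 controls together held 1 read, and the pooled rate was 51.1-fold (95% interval 8.97 to 2040.0) higher, where the interval covers counting error only. Gpnmb, a lysosomal glycoprotein, stood at 0, 0 and 0.982 in the controls and 10.1, 6.71, 7.84 and 9.95 in CBDL2w (log2 difference 2.92 ± 0.65, adjusted p = 0.0134). Its pooled reads gave a ratio of 20.3-fold (95% interval 3.46 to 822). Gpnmb lost its call with a pseudocount of 5 and was below the filter with only the 7 libraries in the fit. The carbohydrate-binding lectin Lgals3 (64.4, 79.3 and 82.5 against 146, 139, 145 and 217; log2 difference 1.07 ± 0.21, adjusted p = 0.005) and the apolipoprotein Apoe (324, 515 and 624 against 1075, 909.5, 1019.8 and 874; log2 difference 1.04 ± 0.21, adjusted p = 0.00719) rose from higher base levels, by 2.15-fold and 1.99-fold of the mean, with no overlap. Apoe is also a target of the sterol-sensing LXR receptors, of which 2 of 11 rose (median 0.607). The median was 0.106 with edgeR, 0.088 with DESeq2, 0.116 with a pseudocount of 5 and 0.109 without Sham6w replicate 1+2+5. In each of those 4 fits 1 gene was higher and 1 lower, the latter being the receptor gene Nr1h3 itself (-1.79 ± 0.50, adjusted p = 0.0539 in limma with all libraries). The second gene to rise was Mylip, a ligase that removes the LDL receptor, whose libraries overlapped (2.12 ± 0.57). Mylip lost its call with edgeR and DESeq2 and in 6 of the 7 fits, all but those without Sham6w replicate 3 (adjusted p = 0.0589 to 0.236). The difference of Mylip was 1.26 without Sham6w replicate 1+2+5. None of 9 genes of cholesterol synthesis and uptake was called by limma, edgeR or DESeq2 (median -0.409), and 2 had an unadjusted limma p under 0.05, both higher. Nor did limma or edgeR call any of 6 genes that sense or handle bile acids and bilirubin, such as the heme oxygenase Hmox1 (-1.05 ± 0.38, adjusted p = 0.139) and the exporter Abcc1 (1.54 ± 0.72, adjusted p = 0.253). Of the 6, 2 had an unadjusted p under 0.05, and DESeq2 called 1 lower.

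Classical monocyte genes rose: 6 of 17 tested passed upward and none downward, with a median of 0.900. Ccr2, the receptor that draws monocytes out of bone marrow and into tissue, stood at 211, 77.1 and 93.3 in the controls and 412, 310.1, 325 and 329 in CBDL2w (log2 difference 1.56 ± 0.27, adjusted p = 0.00176). Plac8 stood at 32.2, 77.1 and 73.6 and 176, 151, 174 and 175 (log2 difference 1.55 ± 0.29, adjusted p = 0.00316), with replicate 1+2+5 lowest of the controls in Plac8 and highest in Ccr2, and no overlap in either. The other members were Fn1, F13a1, the guanine deaminase Gda (1.57 ± 0.34) and the matricellular protein Thbs1 (2.7 ± 0.72). Thbs1 lost its call with edgeR and in 6 of the 7 fits, all but those without Sham6w replicate 1+2+5 (adjusted p = 0.0619 to 0.102). Not every classical marker took part. Ly6c2 was at 7.43, 9.78 and 6.87 against 8.18, 3.73, 4.90 and 2.99 (log2 difference -0.66 ± 0.61, adjusted p = 0.605). The chitinase-like Chil3 overlapped between the groups (log2 difference -0.03 ± 0.78, adjusted p = 0.992). The members of this list together made up 0.248 to 0.604% of reads in the controls and 0.846 to 1.00% in CBDL2w, against 1.11 to 1.3% in control monocytes. Lyz2 and Fn1 had the highest means of the list in CBDL2w and so weigh most in its share there. Fn1 went from a mean of 53.6 to 654. Lyz2, also a gene common to tissue macrophages, went from 484 to 857 and was not called (adjusted p = 0.0924 in limma). In bulk libraries such as these, more cells of a type and more RNA per cell cannot be told apart, and this holds for every marker below.

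Patrolling monocyte genes went the other way: of 17 tested, 4 fell and none rose, with a median of -0.857 and a background of 1.37% lower. Spn, the sialoglycoprotein CD43, stood at 54.5, 58.7 and 65.8 in the controls and 8.18, 14.2, 16.7 and 18.9 in CBDL2w (log2 difference -2.02 ± 0.39, adjusted p = 0.00372). Every ligated library was far below every control.
Pou2f2, a lymphoid and monocyte transcription factor (471, 198 and 282 against 122, 65.6, 106 and 163; -1.44 ± 0.31), and the G protein subunit Gngt2 (106, 166 and 183 against 42.2, 47, 59.8 and 81.6; -1.39 ± 0.31) also fell without overlap. Pou2f2 lost its call without Sham6w replicate 1+2+5 (adjusted p = 0.0557). Gngt2 lost its call without CBDL2w replicate 1 (adjusted p = 0.0529). The integrin chain Itgal was the smallest of the falls (-0.73 ± 0.20). Itgal lost its call with edgeR and in 6 of the 7 fits, all but those without Sham6w replicate 4+6 (adjusted p = 0.0565 to 0.11). The count of 4 became 2 without CBDL2w replicate 1 or Sham6w replicate 1+2+5. The fractalkine receptor Cx3cr1, a marker of the same cells, was not called. It stood at 337, 71.7 and 99.2 in the controls and 318, 249, 301 and 298 in CBDL2w (log2 difference 1.11 ± 0.33, adjusted p = 0.0683), with replicate 1+2+5 at the level of the ligated libraries and the other 2 controls well below. Without replicate 1+2+5 Cx3cr1 passed as higher (1.77, adjusted p = 4.08e-05), as it did with the replicate block and with libraries of single replicate numbers only, in both of which the controls rest on replicate 3 alone. Nr4a1, the factor that patrolling monocytes depend on, overlapped (log2 difference 0.46 ± 0.25, adjusted p = 0.331). Patrolling monocyte genes together took 0.427 to 0.650% of reads in the controls and 0.316 to 0.438% in CBDL2w, which overlap.

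Chemokine receptors had the highest median of the lists outside markers of other cell types (0.933, 3 of 12 higher). Besides Ccr2 these were Ccr1, a receptor for inflammatory CC chemokines (4.95, 3.26 and 1.96 against 24.6, 23.9, 21.6 and 10.9; log2 difference 2.27 ± 0.43, adjusted p = 0.0037), and Ccrl2, which holds chemerin on the cell surface (1.18 ± 0.32). Ccrl2 lost its call with edgeR and in 6 of the 7 fits, all but those without Sham6w replicate 3 (adjusted p = 0.0584 to 0.163). Of 14 chemokines tested 4 rose and 1 fell. The count of 4 became 1 without CBDL2w replicate 1 or Sham6w replicate 1+2+5 and 2 without CBDL2w replicate 2 or 3. With Cxcl2 rose its relative Cxcl1 (4.95, 7.60 and 7.86 against 28.3, 31.3, 35.3 and 20.9; 1.94 ± 0.46), Cxcl14 (2.74 ± 0.63) and the platelet and macrophage chemokine Pf4 (1.73 ± 0.44). Cxcl1 lost its call without CBDL2w replicate 1, 2 or 3 or Sham6w replicate 1+2+5 (adjusted p = 0.0529 to 0.0693). Cxcl14 lost its call with edgeR and without CBDL2w replicate 1 or Sham6w replicate 1+2+5 (adjusted p = 0.0566 to 0.0973). Pf4 lost its call in 5 of the 7 fits, all but those without CBDL2w replicate 4 or Sham6w replicate 3 (adjusted p = 0.0531 to 0.0944). The difference of Cxcl14 was 1.79 without Sham6w replicate 1+2+5. Ccl5, which T and NK cells also make, fell from 24.8, 166 and 173 to 6.93, 5.96, 3.92 and 14.9 (log2 difference -3.48 ± 0.68, adjusted p = 0.00466). 

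Inflammatory cytokine genes and feedback genes of NF-kB rose in 4 of 16 cases with none lower (median 0.628), and this count became 0 without Sham6w replicate 4+6, 1 without CBDL2w replicate 3 and 2 without CBDL2w replicate 1 or 4. Interleukin-1 beta, Il1b, was at 334, 99.9 and 158 in the controls and 354, 371, 454 and 552 in CBDL2w (log2 difference 1.28 ± 0.31, adjusted p = 0.0239). Its level in replicate 1+2+5 was just below the lowest ligated library and the other 2 controls far below. Il1b lost its call without CBDL2w replicate 3 or 4 or Sham6w replicate 3 or 4+6 (adjusted p = 0.0582 to 0.085). Its natural antagonist Il1rn (1.71 ± 0.46), the cytokine signal inhibitor Socs3 (1.44 ± 0.31) and the survival gene Ier3 (1.12 ± 0.29) were called as well. Il1rn lost its call with edgeR and in 5 of the 7 fits, all but those without CBDL2w replicate 4 or Sham6w replicate 1+2+5 (adjusted p = 0.0759 to 0.129). Socs3 lost its call without Sham6w replicate 4+6 (adjusted p = 0.0603). Ier3 lost its call without CBDL2w replicate 1, 3 or 4 or Sham6w replicate 4+6 (adjusted p = 0.0662 to 0.0939). Socs3 and Ier3 also belong to the 25 immediate early genes that tissue dissociation can induce, of which the third to rise was Fos (1.04 ± 0.24). Fos lost its call without Sham6w replicate 1+2+5 (adjusted p = 0.0625). Those 25 genes held 1.26 to 1.49% of reads in the controls and 1.21 to 1.62% in CBDL2w, and their part in the result was not tested. Of 17 genes of Toll-like receptor and inflammasome sensing, Cd14 and Tlr1, a receptor for bacterial lipopeptides (2.40 ± 0.61), rose. Tlr1 lost its call with edgeR and without CBDL2w replicate 1, 2 or 4 or Sham6w replicate 1+2+5 (adjusted p = 0.0741 to 0.155).

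Matrix and repair genes rose in 5 of 16 cases and fell in none (median 0.218), a count that became 3 without CBDL2w replicate 1 or 2. The collagen-binding protein Sparc passed as lower with edgeR, DESeq2 and a pseudocount of 5 and without Sham6w replicate 4+6 (-1.77 ± 0.53, adjusted p = 0.0683 in limma with all libraries). Mmp14, a membrane-bound collagenase, stood at 9.91, 3.26 and 6.87 in the controls and 23.3, 20.9, 28.4 and 42.8 in CBDL2w (log2 difference 2.01 ± 0.40, adjusted p = 0.00492). The other 4 were Fn1, F13a1, Thbs1 and the sheddase Adam9 (2.39 ± 0.57), whose difference was 1.43 without Sham6w replicate 1+2+5. Adam9 lost its call with edgeR and without CBDL2w replicate 1 or 2 or Sham6w replicate 1+2+5 (adjusted p = 0.0619 to 0.12). Of 6 tested genes in the list of growth factors that act on fibroblasts and vessels 2 rose, Vegfa and the matrix protein Tgfbi. Vegfa, the main growth factor of blood vessels, stood at 0, 1.09 and 1.96 in the controls and 22.7, 17.1, 26.5 and 23.9 in CBDL2w (log2 difference 3.66 ± 0.68, adjusted p = 0.00316), and its pooled reads gave a ratio of 17.3-fold (95% interval 5.78 to 85.4). Tgfbi, a matrix protein induced by TGF-beta, stood at 116, 60.8 and 53.0 and 267, 224, 203 and 237 (log2 difference 1.67 ± 0.26, adjusted p = 0.000672). The laminin receptor chain Itga6 had no read in any control and 12.6, 32.1, 18.6 and 8.96 after ligation. Counted against a floor of 3 reads over the control group it was at least 14.3-fold higher (log2 difference 4.11 ± 0.74, adjusted p = 0.00236). The vitronectin receptor chain Itgav, which binds osteopontin and activates TGF-beta, rose less firmly (1.99 ± 0.52). Itgav lost its call with edgeR and DESeq2 and in 6 of the 7 fits, all but those without Sham6w replicate 4+6 (adjusted p = 0.0584 to 0.102). Of 9 genes of alternative activation the arginase Arg1 rose (3.08 ± 0.78) and Cd163 fell. Arg1 lost its call with edgeR and in 5 of the 7 fits, all but those without CBDL2w replicate 3 or Sham6w replicate 4+6 (adjusted p = 0.0556 to 0.0979). By pooled reads Arg1 was higher by 14.4-fold (95% interval 3.83 to 122).

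Lysosomal genes rose in 5 of 26 cases with none lower (median 0.552), and 23 of the 26 had a positive difference. The count of 5 became 2 without CBDL2w replicate 1 and 3 without CBDL2w replicate 2, 3 or 4 or Sham6w replicate 1+2+5. The aminopeptidase cathepsin H, Ctsh (96.6, 80.4 and 75.6 against 171, 204, 197 and 154; log2 difference 1.10 ± 0.20, adjusted p = 0.00291), kept its call throughout, with every ligated library above every control. Psap, which activates sphingolipid breakdown (0.70 ± 0.17), cathepsin S, Ctss (0.66 ± 0.17), and the cholesterol carrier Npc2 (0.72 ± 0.20) did not. Psap lost its call without CBDL2w replicate 1 or 4 or Sham6w replicate 1+2+5 (adjusted p = 0.0523 to 0.0705). Ctss lost its call in 5 of the 7 fits, all but those without CBDL2w replicate 4 or Sham6w replicate 1+2+5 (adjusted p = 0.0703 to 0.0969). Npc2 lost its call without any 1 of the 7 libraries (adjusted p = 0.0517 to 0.117). The proton pump that acidifies lysosomes showed no gene called by limma, edgeR or DESeq2 among 14 (median -0.0863; 1 higher and 1 lower at an unadjusted limma p under 0.05).

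Of 14 genes of MHC class II presentation 2 rose: the invariant chain Cd74 (490.4, 386 and 347 against 771, 893, 663 and 825; log2 difference 0.96 ± 0.21, adjusted p = 0.0105) and Ctss, which cuts it. All but 1 of the 14 had a positive difference, such as the chains H2-Aa (0.79 ± 0.24, adjusted p = 0.0686) and H2-Ab1 (0.80 ± 0.28, adjusted p = 0.12), which did not pass. The inhibitory IgG receptor Fcgr2b rose from 37.1, 29.3 and 23.6 to 125, 106, 90.2 and 98.5 (log2 difference 1.78 ± 0.21, adjusted p = 2.65e-05). In its list of 7 tested genes, named for Fc receptors, 1 rose and 1 fell. The latter was the lectin Fcna, given below. Fcgr2b is also a marker of liver endothelium, of which 1 of 15 rose and 2 fell (median -1.28). Among genes common to tissue macrophages 3 of 18 rose, Cd14 and the self-signal receptor Sirpa (0.99 ± 0.23) among them. Sirpa lost its call without CBDL2w replicate 1 or 4 or Sham6w replicate 1+2+5 (adjusted p = 0.0608 to 0.0744). Adgre1 (F4/80) overlapped between the groups at 32.2, 98.8 and 61.9 against 87.5, 49.9, 26.5 and 30.9 (log2 difference -0.41 ± 0.42, adjusted p = 0.65).

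Ferritin heavy chain, Fth1, stood at 188, 783 and 1042 in the controls and 1531, 1489.5, 1551 and 1822 in CBDL2w (log2 difference 1.57 ± 0.36, adjusted p = 0.0143). In this gene replicate 1+2+5 was far below the other controls, and without it the difference was 0.82, still past the threshold. Fth1 and Cd163 were the 2 called genes of 13 for heme and iron (1 higher, 1 lower; median -0.609). Metallothionein Mt1, which binds zinc and copper, rose (47.1, 47.8 and 29.5 against 95.7, 124, 127 and 181; log2 difference 1.64 ± 0.29, adjusted p = 0.00229). Vegfa was the only called gene of 21 for glycolysis and hypoxia, a list whose median was 0.705.

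Cytosolic ribosomal protein genes rose in 7 of 79 cases with none lower (median 0.392), and 72 of 79 were positive. The called genes were Rpl9, Rps21, Rps15a, Rps25, Rpl32, Rpl35a and Rps9. Rps25 stood at 381, 574 and 504 and 809.7, 942, 875 and 844 (log2 difference 0.85 ± 0.18, adjusted p = 0.0105), and Rps21 differed by 1.07 ± 0.25 (0.65 without Sham6w replicate 1+2+5). Rps25 lost its call without Sham6w replicate 1+2+5 (adjusted p = 0.0518). Rps21 lost its call with edgeR and without CBDL2w replicate 3 or Sham6w replicate 1+2+5 (adjusted p = 0.0522 to 0.102). The count was 0 without Sham6w replicate 1+2+5, 2 without CBDL2w replicate 1, 1 without CBDL2w replicate 3, 4 without CBDL2w replicate 2 or 4, and 23 without Sham6w replicate 3. Their share of reads was 10.9 to 14.8% in the controls and 14.8 to 17.4% in CBDL2w. Transcripts of the mitochondrial genome took 4.12 to 4.74% and 2.32 to 4.11%, lowest in CBDL2w replicates 3 and 4. Of 14, 1 fell, mt-Nd2 of complex I (-0.89 ± 0.22). mt-Nd2 lost its call with edgeR and without CBDL2w replicate 3 or 4 or Sham6w replicate 1+2+5 or 4+6 (adjusted p = 0.0502 to 0.0839). Among 47 nuclear genes of the respiratory chain Cox4i1 alone was called (2.45 ± 0.68), with overlapping libraries. Cox4i1 lost its call with edgeR and in 5 of the 7 fits, all but those without Sham6w replicate 3 or 4+6 (adjusted p = 0.0516 to 0.217). The Cox4i1 difference was 0.99 without Sham6w replicate 1+2+5, and 5 of the 47 passed without Sham6w replicate 3 and 3 without replicate 4+6.

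Medians of several lists moved by over 1.5 times with 1 library. Without Sham6w replicate 3 the median was 0.62 for chemokine receptors, 0.378 for inflammatory cytokine and feedback genes, 0.434 for glycolysis and hypoxia and 0.124 for matrix genes. Without Sham6w replicate 1+2+5 it was 0.373 for matrix genes and 0.246 for ribosomal protein genes. Calls against a list's direction appeared as well. The formyl peptide receptor Fpr1 passed as lower among chemokine receptors without CBDL2w replicate 2 and with DESeq2 and a pseudocount of 5. The anaphylatoxin receptor C3ar1 passed as higher among complement genes without Sham6w replicate 3 or 4+6 and in the same 2 alternatives. The scavenger receptors Stab1 and Cxcl16 passed as higher without Sham6w replicate 3.

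**Figure D3:**
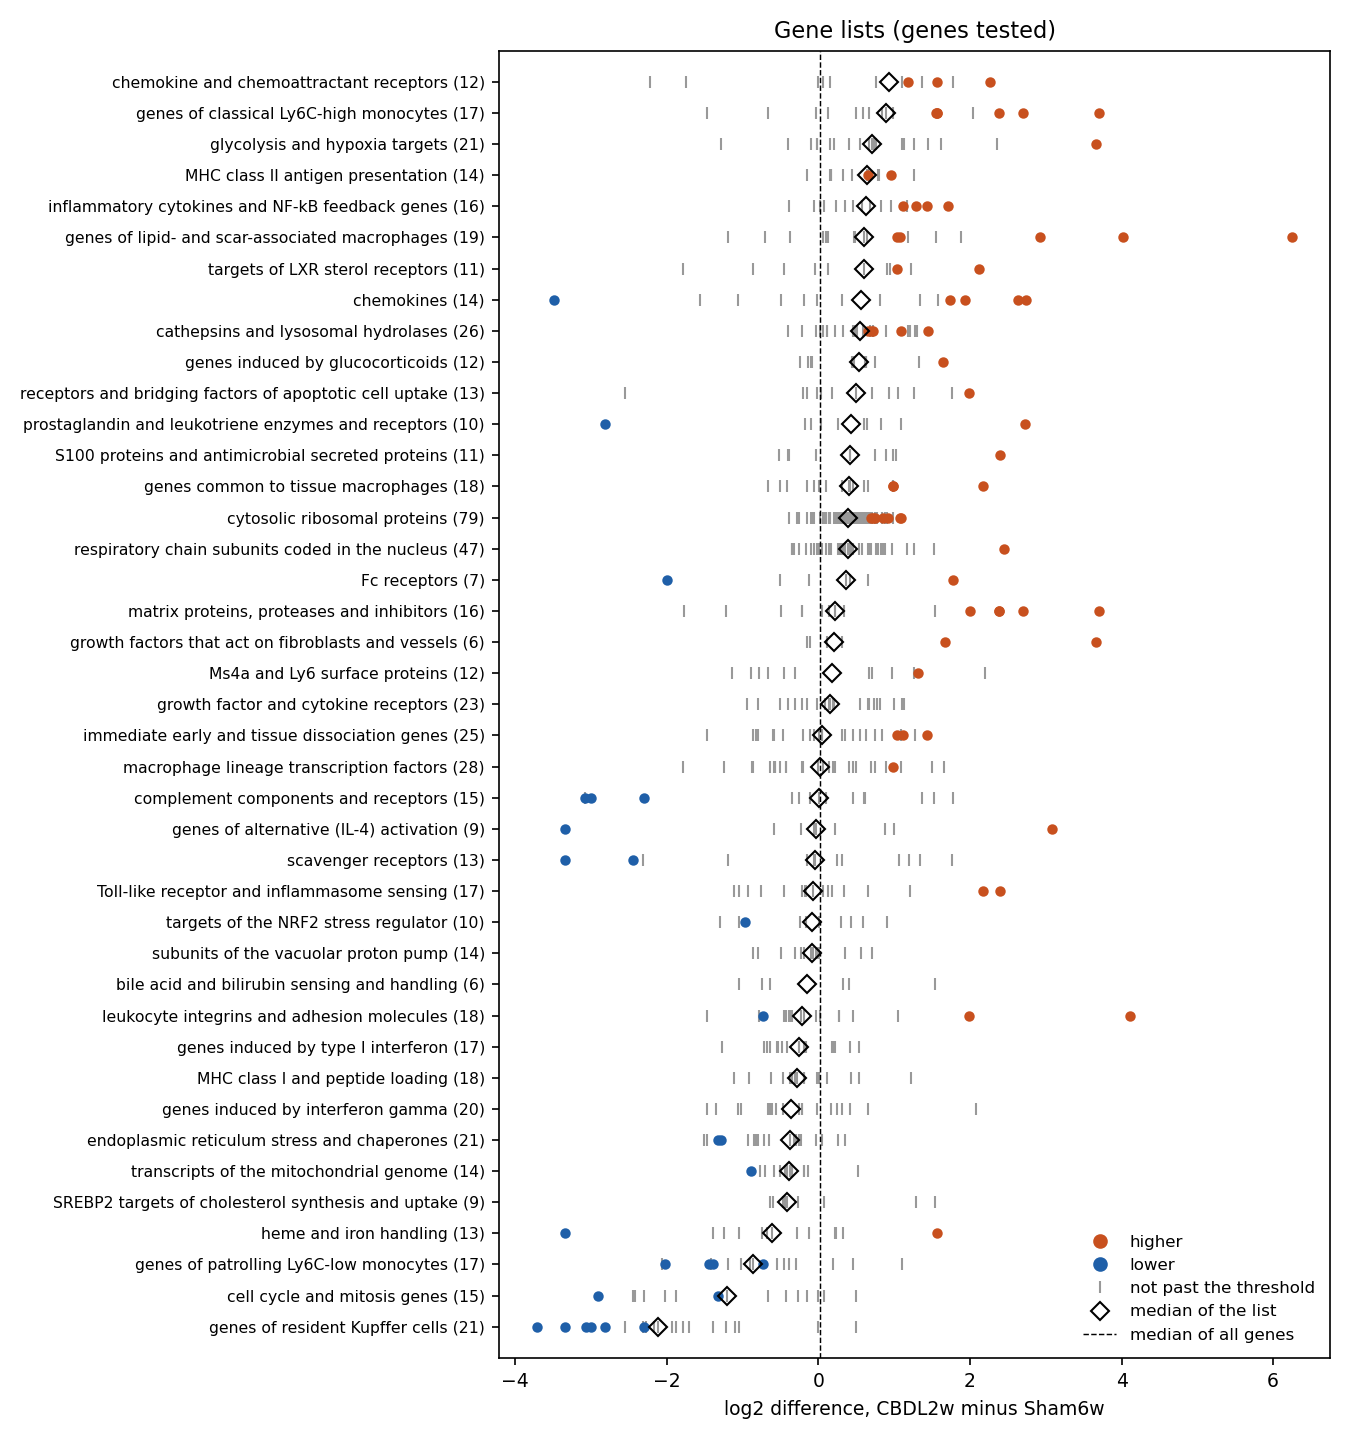
Gene lists with at least 6 tested genes, markers of other cell types left out, ordered by median log2 difference of CBDL2w minus Sham6w (x axis; genes tested in brackets). Dots are genes that passed the threshold, grey ticks those that did not, diamonds list medians and the dashed line the median of all genes, 0.0276; chemokine receptors stand at the top and Kupffer cell genes at the bottom.

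Among the falls, the major urinary protein genes came first. They encode pheromone carriers that hepatocytes secrete, and their near-identical sequences let reads be shared, so the level of any 1 copy is uncertain and they are given as a family. Of the 12 genes with the largest fall named by rule 11 were Mup genes. Mup9 (ENSMUSG00000078686, chromosome 4, 60418046 to 60421952), the first of them, was at 109, 206 and 65.8 in the controls and 0, 2.24, 0 and 2.99 in CBDL2w (log2 difference -5.92 ± 0.76, adjusted p = 6.78e-05). All copies together took 0.23, 0.482 and 0.172% of reads in the controls and 0.00282, 0.00652, 0.000999 and 0.00671% in CBDL2w. The family was also lower after ligation in the other cell types: 0.511 to 1.39% against 0.00854 to 0.0319% in Kupffer cells and 0.127 to 0.228% against 0.000793 to 0.0114% in monocytes. Of a list of 21 other hepatocyte genes 5 were tested, of which limma, edgeR and DESeq2 called none (median -2.16), with 1 higher and 4 lower at an unadjusted limma p under 0.05. The 3 controls alone can meet the filter on low values, and with no filter the median over all 21 was -0.729, with none called by limma. The list took 0.0320 to 0.0492% in the controls and 0.0181 to 0.0301% in CBDL2w, without overlap, and its part in the Mup result was not tested.

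Genes of resident Kupffer cells fell in 6 of 21 cases with none higher, the lowest median of the lists outside markers of other cell types (-2.11 against 0.0276). Clec4f (ENSMUSG00000014542, chromosome 6, 83644542 to 83656187) stood at 29.7, 114 and 91.3 in the controls and 10.1, 11.9, 9.81 and 1.99 in CBDL2w (log2 difference -3.06 ± 0.62, adjusted p = 0.0059). Clec1b, a C-type lectin that binds podoplanin, went from 22.3, 33.7 and 30.4 to 0.630, 2.98, 0.981 and 0.995 (log2 difference -3.71 ± 0.60, adjusted p = 0.00094). In Clec4f replicate 1+2+5 was well below the other 2 controls and still above each ligated library.
The hemoglobin scavenger receptor Cd163 (22.3, 168 and 267 against 15.7, 5.96, 11.8 and 5.97; log2 difference -3.34 ± 0.71, adjusted p = 0.00977) and Hpgd, which degrades prostaglandins (9.91, 58.7 and 57 against 6.93, 7.46, 2.94 and 0.995; log2 difference -2.81 ± 0.61, adjusted p = 0.0117), fell too. Cd163 lost its call without Sham6w replicate 4+6 (adjusted p = 0.0502). Hpgd lost its call without Sham6w replicate 4+6 (adjusted p = 0.0503). A second prostaglandin enzyme, the synthase Hpgds, rose (2.73 ± 0.69). Hpgds lost its call with edgeR and DESeq2 and in 6 of the 7 fits, all but those without Sham6w replicate 4+6 (adjusted p = 0.0559 to 0.105). The complement receptor Vsig4 (-2.30 ± 0.57) and the terminal complement component C6 (-3.0 ± 0.77) were less firm. Vsig4 lost its call in 5 of the 7 fits, all but those without CBDL2w replicate 2 or Sham6w replicate 1+2+5 (adjusted p = 0.0531 to 0.0829). C6 lost its call in 6 of the 7 fits, all but those without Sham6w replicate 1+2+5 (adjusted p = 0.051 to 0.105). Timd4 (-2.56 ± 0.77, adjusted p = 0.0692), Marco (-2.32 ± 0.74, adjusted p = 0.0857) and Cd5l (-1.70 ± 0.52, adjusted p = 0.0755) did not pass. Without Sham6w replicate 1+2+5 the count was 13 of the list, and without replicate 4+6 it was 2. Kupffer genes took 0.154, 0.516 and 0.541% of reads in the controls and 0.0920 to 0.166% in CBDL2w, against 1.31 to 1.43% in control Kupffer cells. In that share replicate 1+2+5 lay within the range of the ligated libraries, and the part of Kupffer cells in these falls was not tested.

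Cd209f (9.91, 33.7 and 86.4 against 0, 0, 0 and 0.995; log2 difference -4.75 ± 0.94, adjusted p = 0.0049), a lectin of the DC-SIGN family, was the 1 gene outside the Mup family among the 12 largest falls. CBDL2w held 1 read of it in all, a pooled ratio of 260.0-fold (95% interval 45.8 to 10400.0) in favour of the controls. Of 13 scavenger receptor genes Cd163 and Stab2 fell, and of 15 complement genes C6, Vsig4 and the decay-accelerating factor Cd55 (-3.08 ± 0.71). Cd55 lost its call without Sham6w replicate 1+2+5 (adjusted p = 0.0611). By pooled reads Cd55 was higher in the controls by 44.4-fold (95% interval 7.14 to 1840.0). The lectin ficolin A, Fcna, fell as well (-1.99 ± 0.54). Fcna lost its call in 5 of the 7 fits, all but those without CBDL2w replicate 2 or Sham6w replicate 1+2+5 (adjusted p = 0.079 to 0.126). Stab2, a hyaluronan receptor (-2.44 ± 0.59), and Clec4g (-2.50 ± 0.66) are the 2 called endothelial markers that fell. Stab2 lost its call without CBDL2w replicate 3 or 4 or Sham6w replicate 1+2+5 (adjusted p = 0.0531 to 0.0681). Clec4g lost its call in 5 of the 7 fits, all but those without CBDL2w replicate 1 or Sham6w replicate 3 (adjusted p = 0.0694 to 0.148). The 17 endothelial genes took 0.0447 to 0.0745% in the controls and 0.0430 to 0.0582% in CBDL2w, which overlap.

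Markers of lymphocytes fell. The immunoglobulin light chain constant gene Igkc stood at 154, 503 and 285 in the controls and 26.4, 7.46, 5.88 and 11.9 in CBDL2w (log2 difference -4.55 ± 0.60, adjusted p = 9.90e-05). Igha (-4.25 ± 0.62), Ighm (-2.24 ± 0.52) and the antibody joining chain Jchain (-3.33 ± 0.83) followed. Ighm lost its call without CBDL2w replicate 3 or Sham6w replicate 3 (adjusted p = 0.0592 to 0.0722). Jchain lost its call without CBDL2w replicate 3 or 4 or Sham6w replicate 3 or 4+6 (adjusted p = 0.0516 to 0.0806). All 3 tested B and plasma cell markers passed downward. So did 3 of 6 T and NK cell markers: Ccl5, the granzyme Gzma (24.8, 61.9 and 56.0 against 5.04, 4.47, 4.90 and 11.9; log2 difference -2.67 ± 0.52, adjusted p = 0.00482) and Gzmb (-2.86 ± 0.79). Gzmb lost its call in 6 of the 7 fits, all but those without Sham6w replicate 1+2+5 (adjusted p = 0.072 to 0.119). The 3 controls alone can meet the filter on low values, so markers low after ligation could enter the test through them. With no filter 5 of 15 B and plasma cell markers and 4 of 18 T and NK cell markers were lower and none higher. The 15 B and plasma cell genes made up 0.0775 to 0.327% of reads in the controls and 0.00666 to 0.0204% in CBDL2w. The 18 T and NK genes made up 0.0261 to 0.115% and 0.00651 to 0.0141%, with Cd8a at 0 in all 7 libraries. In both shares every ligated library was below every control. Neutrophil genes took 0.00306 to 0.00807% and 0.00504 to 0.0170%, with Ly6g, Ltf, Il1r2 and Elane at 0 throughout, and stellate and fibroblast genes 0.0143 to 0.0295% and 0.00600 to 0.00991%, with Col1a1, Col1a2, Lrat, Des and 4 other genes at 0. Dendritic cell genes took 0.144 to 0.179% and 0.0963 to 0.136%, and none of 7 tested passed by limma, edgeR or DESeq2, 1 of them with an unadjusted limma p under 0.05.

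**Figure D4:**
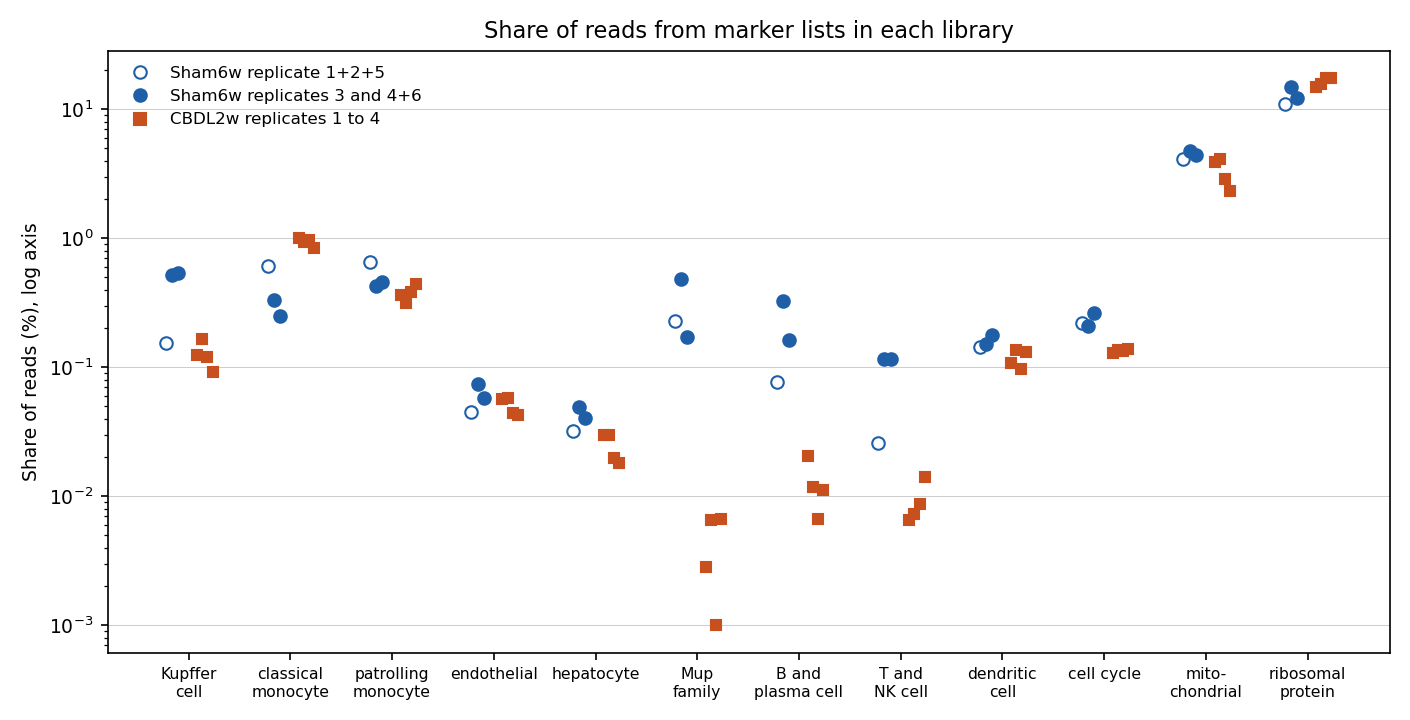
Share of reads (%, log axis) from each marker list in the 7 libraries, with circles for Sham6w (open circle, replicate 1+2+5) and squares for CBDL2w. Mup, hepatocyte, B and plasma cell, T and NK cell, dendritic cell and cell cycle genes are lower in each ligated library. Classical monocyte genes are higher in each, while the Kupffer cell, patrolling monocyte and endothelial shares overlap. Mitochondrial transcripts are lower by a narrow margin (at most 4.11% against at least 4.12%), and the ribosomal protein shares meet at 14.8%.

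Cell cycle genes had the second lowest median of the same lists (-1.21), and 2 of 15 fell with none higher. Top2a, the topoisomerase that untangles chromosomes at mitosis, was at 54.5, 22.8 and 29.5 in the controls and 1.89, 0.746, 9.81 and 6.97 in CBDL2w (log2 difference -2.91 ± 0.58, adjusted p = 0.005). The chromatin protein Hmgb2 fell from 144, 90.2 and 69.7 to 36.5, 28.3, 44.1 and 46.8 (log2 difference -1.32 ± 0.28, adjusted p = 0.0105). Hmgb2 lost its call without Sham6w replicate 1+2+5 (adjusted p = 0.0615). With them fell the replication-dependent histones Hist1h2ap (168, 109.7 and 135 against 27.1, 31.3, 36.3 and 17.9; log2 difference -2.27 ± 0.38, adjusted p = 0.00109) and Hist1h2ao (-2.53 ± 0.42), which belong to near-identical copies and are uncertain as single genes. Cell cycle genes took 0.207 to 0.264% of reads in the controls and 0.129 to 0.138% in CBDL2w, without overlap.

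Both genes of the cytosolic HSP90 chaperone fell. Hsp90ab1 (1763, 1151 and 1204 against 498, 509, 577 and 582; log2 difference -1.32 ± 0.18, adjusted p = 0.000124) and Hsp90aa1 (1758, 1200.3 and 1172 against 471, 496, 727 and 563; log2 difference -1.28 ± 0.22, adjusted p = 0.00186) are the cytosolic forms of a heat shock protein that folds kinases and receptors. They were 2.54-fold and 2.44-fold lower in the mean, with every ligated library below every control. They were the 2 called of 21 genes of endoplasmic reticulum stress and chaperones (median -0.372), and the co-chaperone Dnaja1, chosen after its values were seen, fell as well (-1.48 ± 0.27). Superoxide dismutase Sod1 was the 1 called NRF2 target of 10 (-0.96 ± 0.21). Sod1 lost its call without CBDL2w replicate 3 (adjusted p = 0.0529).

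No change of interferon genes was detectable at this depth: 0 of 17 genes induced by type I interferon (median -0.256) and 0 of 20 induced by interferon gamma (median -0.360) passed in limma, edgeR or DESeq2. At an unadjusted limma p under 0.05 there were 0 of the 17 and 3 of the 20. None of 18 genes of MHC class I presentation passed in the 3 tools (median -0.285; 3 at an unadjusted p under 0.05, all lower), nor any of 23 growth factor and cytokine receptors (median 0.158; 6 at an unadjusted p under 0.05). For none of these genes does a missed threshold show that its level stayed the same.

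Across the other groups of monocyte-derived macrophages the leading genes differed in where else they were high. These levels are given as means ± SD over 4 libraries, without a test between injuries. Spp1 stood at 137 ± 55.5 in CBDL2w, 27.9 ± 6.01 in CBDL6w, 1.24 ± 0.973 in DSS and 103 ± 20.9 in CBDL+DSS. Fn1 followed the same order of ligated over colitis-only groups, at 654 ± 106, 177 ± 51.1, 13.0 ± 6.73 and 286 ± 30.7. Cxcl2 was at 575 ± 128, 119 ± 6.94, 208 ± 61.3 and 357 ± 134. The early group had the highest mean of these 4 for each of the 3 genes, and in Spp1 CBDL+DSS lay within 1 SD of it.
Trem2 (20.7 ± 7.65, 5.03 ± 1.76, 2.98 ± 1.55 and 53.1 ± 3.89) and Apoe (969.6 ± 93.9, 413 ± 51.7, 178 ± 22.3 and 2449 ± 598) had their highest means in CBDL+DSS. Clec4f was low in all 4 injuries, at 8.45 ± 4.41, 22.3 ± 18.5, 10.2 ± 4.64 and 14.5 ± 9.98, against 78.4 ± 43.6 (n = 3) in the controls. Against the same 3 controls, 74 of the 6079 genes passed in CBDL6w (1.22%), of which 25 were higher (0.411%) and 49 lower (0.806%). Both comparisons share those controls.

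Whether the change differed from that in Kupffer cells was tested as the difference between the 2 effects over all 58 libraries. Of 7555 genes 26 passed (0.344%), 8 more positive (0.106%) and 18 more negative (0.238%) in monocyte-derived macrophages. Spp1 rose further than in Kupffer cells, where it went from 2.37 ± 1.42 to 23.5 ± 16.1 (log2 difference between the effects 3.58 ± 0.86, adjusted p = 0.0388). The Spp1 difference lost its call with edgeR and DESeq2 and in 5 of the 7 fits, all but those without CBDL2w replicate 4 or Sham6w replicate 4+6 (adjusted p = 0.0603 to 0.154). Lyz1 stood at 70.4 ± 10.6 and 86.6 ± 15.4 in Kupffer cells, where its own difference was 0.29 ± 0.27 (log2 difference between the effects 2.11 ± 0.37, adjusted p = 0.00422). Fth1 (1.98 ± 0.40; 1.23 and adjusted p = 0.0856 without Sham6w replicate 1+2+5) and the endocytic adaptor Dab2 (2.07 ± 0.48) were also more positive, as were the lysosome regulator Tfe3 (3.00 ± 0.68) and the fatty acid enzyme Hacd4 (2.18 ± 0.51). The Dab2 difference lost its call without CBDL2w replicate 1 or 3 or Sham6w replicate 3 (adjusted p = 0.0556 to 0.0803). The Tfe3 difference lost its call with edgeR and without CBDL2w replicate 3 or Sham6w replicate 1+2+5 (adjusted p = 0.0659 to 0.155). The Hacd4 difference lost its call with edgeR and DESeq2 and without CBDL2w replicate 1, 3 or 4 or Sham6w replicate 1+2+5 (adjusted p = 0.0513 to 0.276).
More negative was Cx3cr1, which rose from 30.8 ± 27.3 to 259.8 ± 24.6 in Kupffer cells (log2 difference between the effects -2.25 ± 0.45, adjusted p = 0.00958). The Cx3cr1 difference lost its call without Sham6w replicate 1+2+5 (adjusted p = 0.0787). Anxa2, a membrane-binding annexin, was more negative too (5.89 ± 4.09 to 26.0 ± 12.9 in Kupffer cells and 86.3 ± 42.8 to 48.3 ± 4.07 here; log2 difference between the effects -2.77 ± 0.51, adjusted p = 0.00476). Spn (-3.34 ± 0.73), the chromatin protein Hmgn2 (-2.42 ± 0.51), Hist1h2ap (-2.82 ± 0.67), the semaphorin Sema4d (-2.76 ± 0.58) and the ribonuclease Rnase6 (-2.72 ± 0.62) had more negative effects here, and so had Igkc (-5.49 ± 1.04). The Spn difference lost its call with edgeR and without CBDL2w replicate 1 (adjusted p = 0.0556). The Hmgn2 difference lost its call without CBDL2w replicate 4 or Sham6w replicate 1+2+5 (adjusted p = 0.0543 to 0.069). The Hist1h2ap difference lost its call without CBDL2w replicate 1 or 4 or Sham6w replicate 1+2+5 (adjusted p = 0.0603 to 0.0897). The Sema4d difference lost its call without Sham6w replicate 1+2+5 (adjusted p = 0.0856). The Rnase6 difference lost its call without CBDL2w replicate 1 or 4 or Sham6w replicate 4+6 (adjusted p = 0.0512 to 0.0556). The total of 26 was 15 without CBDL2w replicate 1, 3 or 4, 17 without Sham6w replicate 1+2+5, 56 without Sham6w replicate 4+6 and 89 without Sham6w replicate 3. In Kupffer cells themselves 167 of 6159 genes passed (2.71%), 67 higher (1.09%) and 100 lower (1.62%).

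Against the change in monocytes 104 of 7555 genes differed (1.38%), 90 more positive (1.19%) and 14 more negative (0.185%) here. The median difference of all genes was 0.177 in limma and 0.0516 in edgeR, and values are read against it. Dab2 rose from 46.9 ± 21.9 to 128 ± 20.3 in monocyte-derived macrophages, while it went from 95.4 ± 28.6 to 20.8 ± 12.8 in monocytes (log2 difference between the effects 3.86 ± 0.49, adjusted p = 9.41e-07). Apoe went from 321 ± 29.0 to 166 ± 61.9 in monocytes (log2 difference between the effects 2.04 ± 0.36, adjusted p = 0.000653). Spp1 was more positive here than in monocytes, where it stood at 25.2 ± 22.5 and 77.1 ± 37.3 (log2 difference between the effects 4.48 ± 0.90, adjusted p = 0.00372), as were Mmp14 (2.90 ± 0.53) and Cd74 (1.73 ± 0.38).
Fn1 (2.79 ± 0.71), Lyz1 (1.5 ± 0.38) and Cd93 (2.00 ± 0.51) were called with less support. The Fn1 difference lost its call without CBDL2w replicate 1 or 3 or Sham6w replicate 4+6 (adjusted p = 0.0508 to 0.0913). The Lyz1 difference lost its call with edgeR and without CBDL2w replicate 1 or Sham6w replicate 1+2+5 (adjusted p = 0.072 to 0.178). The Cd93 difference lost its call without CBDL2w replicate 1 or 2 or Sham6w replicate 4+6 (adjusted p = 0.0618 to 0.0794). The largest differences came from falls in monocytes: Nr2f2 (5.68 ± 1.09), a transcription factor of venous endothelium, Akap2 (5.46 ± 1.12), the neutrophil gene S100a9 (5.39 ± 1.3) and Cyp26b1 (4.54 ± 1.09) all fell there. The Cyp26b1 difference lost its call with edgeR and without Sham6w replicate 1+2+5 (adjusted p = 0.0734). S100a9 and Cyp26b1 were not called with edgeR. Here Nr2f2 stood at 2.14 ± 2.89 and 2.49 ± 1.59 and S100a9 at 1.65 ± 2.86 and 6.55 ± 2.13, against 51.5 ± 13.6 and 0.445 ± 0.514 and 156 ± 128 and 16.0 ± 17.0 in monocytes. Endothelial markers took 0.339 to 0.574% of reads in control monocytes and 0.0434 to 0.0830% in ligated ones, and neutrophil markers 0.0312 to 0.230% and 0.0234 to 0.0508%. Their part in these differences was not tested.
More negative than in monocytes were Bin2 (-1.71 ± 0.39), a membrane-shaping protein of leukocytes, the elongation factor Supt4a (-2.17 ± 0.52), Cd209f (-4.49 ± 1.19), Hmgb2 (-1.80 ± 0.49), the GTPase Rac2 (-1.36 ± 0.36) and the complex I subunit Ndufa6 (-1.08 ± 0.28). The Supt4a difference lost its call without CBDL2w replicate 1 (adjusted p = 0.0567). The Cd209f difference lost its call with edgeR and DESeq2 and without CBDL2w replicate 1, 2 or 3 or Sham6w replicate 4+6 (adjusted p = 0.0627 to 0.102). The Hmgb2 difference lost its call with edgeR and without CBDL2w replicate 1, 2 or 3 or Sham6w replicate 1+2+5 (adjusted p = 0.0547 to 0.154). The Rac2 difference lost its call with edgeR and DESeq2 and in 5 of the 7 fits, all but those without CBDL2w replicate 4 or Sham6w replicate 3 (adjusted p = 0.0581 to 0.0822). The Ndufa6 difference lost its call with edgeR and without CBDL2w replicate 1 or 2 or Sham6w replicate 1+2+5 or 4+6 (adjusted p = 0.0571 to 0.0811). The total of 104 was 63 without CBDL2w replicate 1 or 2, 191 without Sham6w replicate 3 and 36 with edgeR. In monocytes themselves 841 of 6112 genes passed (13.8%), 492 higher (8.05%) and 349 lower (5.71%).

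**Figure D5:**
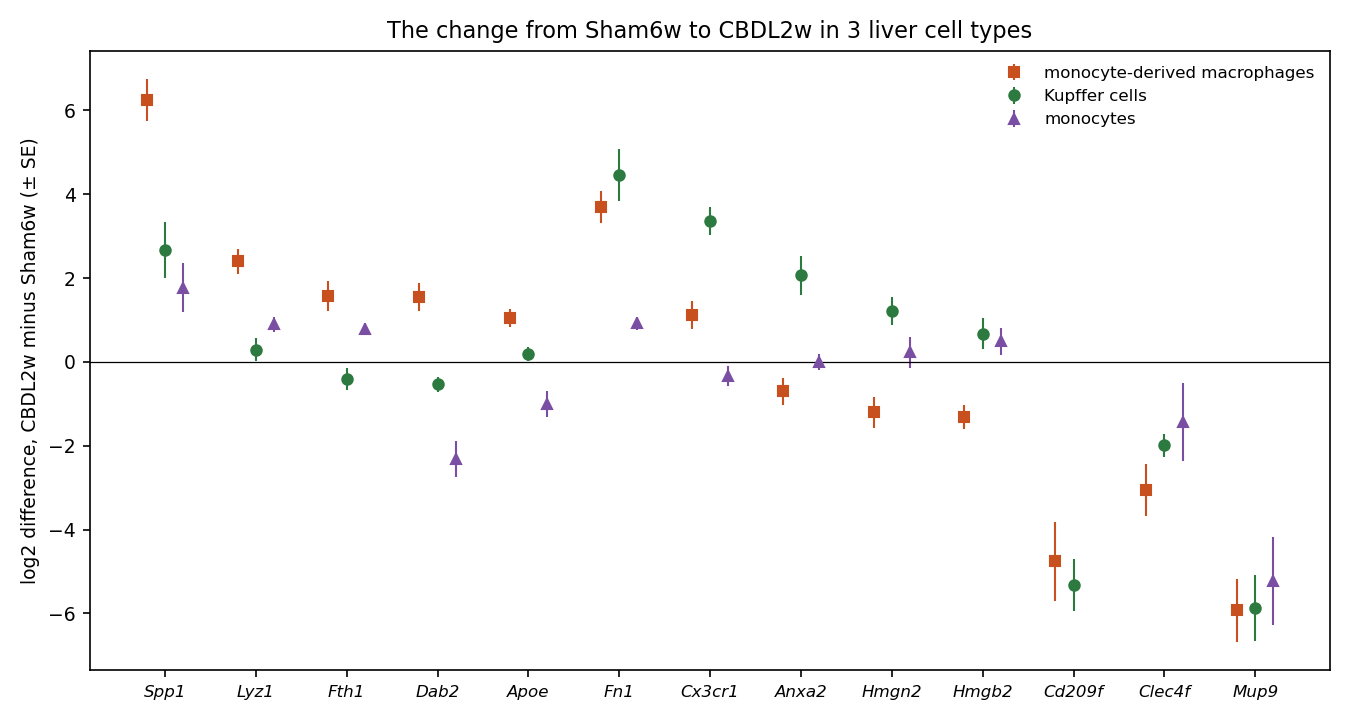
Log2 difference of CBDL2w minus Sham6w (y axis, ± SE) for 13 genes in monocyte-derived macrophages (squares), Kupffer cells (circles) and monocytes (triangles), from 1 fit per cell type; a gene below the filter in a cell type has no symbol there. Spp1 and Lyz1 rise most in monocyte-derived macrophages, Cx3cr1 and Anxa2 are highest in Kupffer cells, and Mup9 falls in all 3.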

How the data were processed

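Per the labels' protocols, RNA of the liver cells was made into 3′ tag libraries with unique molecular identifiers. Per the submitters' processing notes, the build was GRCm38.p6 and the tools, in no stated order, were RSEM 1.3.1, STAR 2.7.5b, Trimmomatic (0.39 and 0.39-1), UMI-tools 1.0.1 and DESeq2. Neither the annotation nor a collapse of reads by identifier is stated there. The authors deposited 1 table of normalized counts, a depth-scaled signal in which each library's gene counts are divided by its size factor. In all 58 columns 100% of values came out as whole reads within 0.01 once that factor was found; edgeR and DESeq2 were run on these recovered reads as alternatives. Of 25307 genes 25272 were matched to GENCODE M21 for biotype and position, which are of the same assembly.

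The main test was limma (version 3.58.1, under R 4.3.3, with its trend and robust options; two-sided, Benjamini-Hochberg threshold 0.05) on log2 of normalized count + 1, in 1 fit over the 19 libraries of monocyte-derived macrophages, on genes with at least 10 in at least 3 of them. Its log2 differences are given ± SE. Differences between cell types were contrasts in 1 fit over all 58 libraries. Alternatives were a pseudocount of 5, no filter, equal totals, edgeR 4.0.16, DESeq2 1.42.0, each library left out, the replicate number as a block, only the 7 libraries, libraries with single replicate numbers, and limma without its options. The fits were also run on simulated reads with known fold changes, and the outcome is not reported here. Genes were named by rule: the 12 largest rises and falls among called genes whose higher group averaged 30 or more, without overlap (immunoglobulin, T cell receptor, unnamed and pseudogenes left out), up to 4 per list, cell type markers, and 6 per direction of each difference; Dnaja1, Igha and others outside it were added after their values were seen. The comparison and the gene lists were chosen with earlier results of these data known. Intervals of read ratios (95%, exact) and the floor of 3 reads cover counting error only. Some genes of the lists are not reported here.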

Additional observations from a re-analysis of the deposited data

Results flagged for a closer look

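In 9 of the 84 genes named in the comparison of CBDL2w with Sham6w, 1 of the 4 CBDL2w libraries lay far from the other 3; the gap to its nearest neighbour, as a share of the whole range of the 4, was above the 95% critical value. Chance marks about 1 in 20 groups in this way. Among the genes that rose, Rnase4 was high in replicate 2 (77.5 against 48 to 52.9; gap 0.836 of the range) and Lgals3 in replicate 4 (217 against 139 to 146; 0.905). Plac8 was low in replicate 2 (151 against 174 to 176; 0.917) and Fos in replicate 1 (180.4 against 201 to 205; 0.849). Among those that fell, Clec1b was higher in replicate 2 (2.98 against 0.63 to 0.995; 0.845), Gzma in replicate 4 (11.9 against 4.47 to 5.04; 0.925), and Hist1h2ao lower in replicate 4 (8.96 against 23.3 to 23.9; 0.962). Cd209f in replicate 4 (0.995) and Cd55 in replicate 3 (0.981) each held the 1 read among 4 libraries, so the gap was 1, the whole range.

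The change from Sham6w to CBDL2w differed from that in Kupffer cells, by the test of the difference itself, in 15 named genes. On the log2 scale the difference was 3.58 for Spp1, 3.00 for Tfe3, 2.18 for Hacd4, 2.11 for Lyz1, 2.07 for Dab2 and 1.98 for Fth1. It was -5.49 for Igkc, -3.34 for Spn, -2.82 for Hist1h2ap, -2.77 for Anxa2, -2.76 for Sema4d, -2.72 for Rnase6, -2.42 for Hmgn2, -2.25 for Cx3cr1 and -1.99 for Hmgb2.

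It differed from the change in monocytes in 18 named genes. The difference was 5.68 for Nr2f2, 5.46 for Akap2, 5.39 for S100a9, 4.54 for Cyp26b1, 4.48 for Spp1, 3.86 for Dab2, 2.90 for Mmp14, 2.79 for Fn1, 2.04 for Apoe, 2.00 for Cd93, 1.73 for Cd74 and 1.5 for Lyz1. It was -4.49 for Cd209f, -2.17 for Supt4a, -1.80 for Hmgb2, -1.71 for Bin2, -1.36 for Rac2 and -1.08 for Ndufa6. Of these 33 differences 12 stayed past the threshold without each of the 7 libraries: Lyz1, Anxa2 and Igkc against Kupffer cells, and Spp1, Nr2f2, Akap2, S100a9, Bin2, Dab2, Apoe, Mmp14 and Cd74 against monocytes.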

How the results depend on the processing

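No gene or difference between cell types named as called changed direction under an alternative. The 186 calls of CBDL2w against Sham6w became 295 with DESeq2 on recovered reads, 50 with only the 7 libraries compared and 53 with libraries of single replicate numbers only, in which a single control library was left and was assumed to vary like the other groups. They were 165 with edgeR, 218 with a pseudocount of 5, 172 with no filter on low values, 192 with equal totals and 153 without the trend and robust options. Leaving out 1 library gave 114 to 440. The 26 differences from Kupffer cells became 17 with edgeR and ranged from 15 to 89 over single libraries left out, with 56 without Sham6w replicate 4+6. The 104 differences from monocytes became 171 with a pseudocount of 5, 168 with no filter and 36 with edgeR, and ranged from 63 to 191. The cause of these shifts was not tested, beyond the smaller number of libraries and genes in some fits. Of the named genes and differences 90 kept their call with edgeR and 27 lost it, and 109 kept it with DESeq2 and 7 lost it. Of the named genes 32 kept it and 44 lost it with only the 7 libraries, 27 and 54 with single replicate numbers only, and 16 and 68 with the replicate block.

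Between cell types the deviations of same-numbered libraries correlated at 0.0108 to 0.0786. The 1 pair within monocyte-derived macrophages, replicate 3 of CBDL2w and Sham6w, correlated at -0.00631. Libraries of different numbers were not compared in this way, so whether replicate numbers pair the libraries was not tested. With the replicate number as a block, in which the controls rest on the 1 library that shares a number, 31 genes were called, 24 of them among the 186. Of the 186, 1 gene, the unnamed model Gm19810, had the other sign there (2.25 became -0.196, adjusted p = 0.968). With a replicate block by estimated correlation (0.0462) the differences from Kupffer cells numbered 29 and those from monocytes 128.

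With 118687 to 461071 reads a library, the 9 named genes at 0 to 3 reads in the lower group, 7 of them higher and 2 lower after ligation, have ratios bounded by counting error.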
